A study of Arabidopsis thaliana with 4 samples.

Results

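Regions of the Arabidopsis genome that carried a peak of H3K4me3, the trimethylation of histone H3 at lysine 4, in control roots and no called peak in roots under osmotic stress were described. Peaks of the 4 libraries that shared at least 1 bp were merged on chromosomes 1 to 5, which gave 16055 regions. A region was kept when it held a peak of at least 1 control library and of neither stress library, and 276 regions met this rule, 1.72% of all. A copy of organelle DNA on chromosome 2 was left out, and none of the 15 regions in it met the rule. Of the 276 control-only regions, 71 (0.442% of all regions) had a peak in both control libraries, 152 (0.947%) in control replicate 1 alone and 53 (0.33%) in control replicate 2 alone. The regions were thus selected on the presence or absence of called peaks, and these counts and every value that sets stress against control here are descriptions with no test.

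The study compared stress plants, Arabidopsis thaliana ecotype Col-0 grown for 10 days on 1/2 MS medium with 250 mM sorbitol, with control plants of the same ecotype and age on 1/2 MS medium without sorbitol. H3K4me3 was profiled by CUT&Tag, in which an antibody guides a transposase that cuts and tags the DNA around the mark, with 2 libraries per condition. The labels give root, Col-0, osmotic stress and methylation of H3K4, and the medium, the age and the trimethyl form are those of the study's text. That text gives root tips of 5 mm for the isolation of nuclei and does not name the material of the CUT&Tag libraries. The study calls the libraries biological replicates, and whether they came from separate plants or cultures is not said in the sources used here. The tables do not identify the tissue, because 7 of 18 listed root hair genes (38.9%) and 3 of 15 listed endodermis and suberin genes (20%) had a region in every library, against 46.2% of all 37713 annotated genes, and 8 and 9 of them had no region, against 43.1% of all genes. All cell types of the root material were profiled together, so fewer cells of a type and less mark per cell cannot be told apart.

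H3K4me3 marks the first nucleosomes of transcribed genes, just downstream of the start, where RNA polymerase II leaves the promoter. Its level is associated with how often and in how many cells a gene is transcribed. Small RNA genes are a separate case, because tRNA genes are read by RNA polymerase III from elements inside the gene, and plant snRNA genes are read by polymerase II or III from a shared upstream element. Copper-responsive microRNAs and enzymes are controlled in plants by SPL7, a transcription factor that binds the letters GTAC.

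Among the genes at control-only regions were MIR398b, MIR408, FSD1 and FRO4, which belong to the response of the root to low copper. MIR398b and MIR408 encode microRNAs against messages of copper proteins, FSD1 encodes an iron superoxide dismutase that can stand in for the copper enzymes, and FRO4 encodes a metal reductase of the root surface. Their start windows, from 250 bases before to 50 bases after the annotated start, are shown because 3 of the 4 hold the GTAC core of copper response elements, written in capitals. Sequences were read 5′ to 3′ on the strand of the gene from the RefSeq TAIR10.1 genome.
MIR398b chr5:4690772-4691071 (+): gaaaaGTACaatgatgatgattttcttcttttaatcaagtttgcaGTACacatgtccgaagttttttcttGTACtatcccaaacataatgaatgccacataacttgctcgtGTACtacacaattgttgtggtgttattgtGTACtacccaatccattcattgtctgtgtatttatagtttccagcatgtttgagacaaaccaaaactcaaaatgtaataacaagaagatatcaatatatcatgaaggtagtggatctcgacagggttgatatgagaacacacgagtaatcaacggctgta
MIR408 chr2:19319564-19319863 (+): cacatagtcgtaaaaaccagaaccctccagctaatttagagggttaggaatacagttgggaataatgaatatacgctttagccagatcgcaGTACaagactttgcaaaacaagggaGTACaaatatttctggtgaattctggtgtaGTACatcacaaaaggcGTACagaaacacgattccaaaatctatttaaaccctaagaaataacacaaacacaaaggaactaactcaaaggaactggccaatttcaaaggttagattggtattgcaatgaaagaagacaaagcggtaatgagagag
FSD1 chr4:12886962-12887261 (-): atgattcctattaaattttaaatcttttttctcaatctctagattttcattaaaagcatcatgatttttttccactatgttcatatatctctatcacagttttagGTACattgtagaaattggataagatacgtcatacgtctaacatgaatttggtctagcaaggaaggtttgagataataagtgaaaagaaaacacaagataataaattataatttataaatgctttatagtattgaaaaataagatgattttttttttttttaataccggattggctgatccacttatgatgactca
FRO4 chr5:8101281-8101580 (-): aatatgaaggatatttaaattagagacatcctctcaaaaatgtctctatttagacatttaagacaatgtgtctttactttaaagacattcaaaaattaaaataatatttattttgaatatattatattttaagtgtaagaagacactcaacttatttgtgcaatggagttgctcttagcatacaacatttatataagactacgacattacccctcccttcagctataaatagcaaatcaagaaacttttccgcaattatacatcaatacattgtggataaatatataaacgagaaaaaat

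The MIR398b window held 5 copies of GTAC, first bases 245, 205, 180, 139 and 110 bp before the hairpin's annotated start, and the MIR408 window held 4 copies, 159, 134, 104 and 88 bp before it. The FSD1 window held 1 copy, 145 bp before the start, and the FRO4 window held 0. Among the windows of all 37711 genes, 39.7% held at least 1 copy and 2.15% held at least 3, so 1 copy was common and at least 3 were rare. The windows of the 24 matched genes of the copper list held at least 1 copy in 58.3% and at least 3 in 8 genes (33.3%), MIR398b and MIR408 among them. Over the 94 genes at regions of both control libraries, 36.2% held at least 1 copy. GTAC reads the same on both strands, and a match is only a match of letters.

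The mature microRNAs of the hairpins at regions of both control libraries are shown with the seed, bases 2 to 8, in capitals, as DNA letters of the genome.
miR398b-3p chr5:4691107-4691127 (+): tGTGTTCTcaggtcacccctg
miR408-3p chr2:19319933-19319953 (+): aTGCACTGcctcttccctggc
miR172e-3p chr5:23988566-23988586 (+): gGAATCTTgatgatgctgcat

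The seeds GTGTTCT of miR398b-3p, TGCACTG of miR408-3p and GAATCTT of miR172e-3p all differed, so no seed was shared. The hairpins MIR848, with 93 fragments, and MIR5635c, next to AGP13, with 98, lay at regions of control replicate 1 alone. miR398 is known to target copper/zinc superoxide dismutases and their chaperone, miR408 plantacyanin and laccases, and miR172 transcription factors of the AP2 family.

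Genes of small nuclear RNAs form another set. The letters TCCCACATCG are the run of 10 bases that lay upstream of the most annotated snRNA genes, 29 of 82, and match the known upstream element of plant snRNA genes. They are in capitals in 2 windows of regions with a peak in both control libraries. U5.7 and U4atac are annotated snRNA genes, whose RNAs are parts of the major and the minor spliceosome.
U5.7 chr4:1114580-1114879 (-): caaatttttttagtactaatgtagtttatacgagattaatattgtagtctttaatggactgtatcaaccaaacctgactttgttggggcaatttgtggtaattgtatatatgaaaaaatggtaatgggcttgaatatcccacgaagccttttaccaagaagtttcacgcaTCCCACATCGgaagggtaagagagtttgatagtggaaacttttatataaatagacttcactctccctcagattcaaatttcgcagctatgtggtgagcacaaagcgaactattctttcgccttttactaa
U4atac chr4:9096125-9096424 (+): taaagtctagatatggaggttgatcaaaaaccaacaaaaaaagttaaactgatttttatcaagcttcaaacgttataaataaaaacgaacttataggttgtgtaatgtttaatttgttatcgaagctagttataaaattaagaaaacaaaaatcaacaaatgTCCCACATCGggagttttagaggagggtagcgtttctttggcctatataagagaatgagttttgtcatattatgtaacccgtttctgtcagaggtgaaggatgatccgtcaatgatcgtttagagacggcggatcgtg

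The element started 80 bp before U5.7 and 88 bp before U4atac. Whole tRNA genes at regions of both control libraries are shown for the letters GTTCGANNC, the core of the internal B box, in capitals. The 3 genes shown held a match, and the tRNA-Pro gene AT3G29095 held no match. The others of the 7 tRNA genes at such regions were not searched in this way.
tRNA-Gly (AT1G60840) chr1:22397592-22397662 (-): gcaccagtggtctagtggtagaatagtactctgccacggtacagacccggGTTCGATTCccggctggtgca
tRNA-Trp (AT4G17765) chr4:9873512-9873583 (-): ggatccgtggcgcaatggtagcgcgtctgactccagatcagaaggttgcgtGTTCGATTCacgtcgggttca
tRNA-Lys (AT3G56085) chr3:20813517-20813589 (-): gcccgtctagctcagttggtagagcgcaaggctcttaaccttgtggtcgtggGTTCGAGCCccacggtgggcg

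The 71 regions of both control libraries carried similar signal in both replicates. The signal was the pileup at the summit, the number of fragments stacked there, divided by the fragments of the library and given as fragments per 1000000 (FPM). Over the 71 regions the signal was 2.66, 8.66 and 23.6 FPM in control replicate 1 (lowest, median and highest) and 3.28, 9.07 and 21.4 in control replicate 2. The fold enrichment over the local background was 1.78, 2.54 and 4.96 in replicate 1, and in replicate 2 it was 1.81, 2.65 and 3.76. The ratio of replicate 1 to replicate 2 lay between 0.710 and 1.28 with a median of 0.950, and Pearson's r of the log2 signal was 0.94 across the 71 regions, against 0.96 across the 11915 regions with a peak in every library. Regions are not replicates, and the range of levels sets part of such an r.

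**Figure D1:**
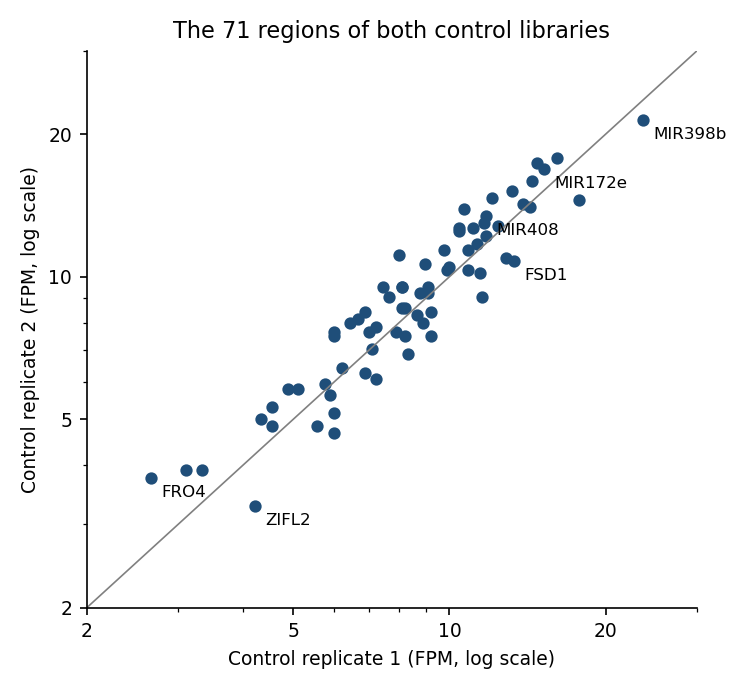
Pileup in fragments per 1000000 (FPM) of the 71 regions in control replicate 1 (x axis) and control replicate 2 (y axis), both on log scales, and the grey line marks equal values. The regions lie near the line, from FRO4 at 2.66 and 3.75 to MIR398b at 23.6 and 21.4 FPM.

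The stress libraries have no value at these regions, because a peak table lists a pileup only where a peak was called. The stress libraries were the deeper ones, with 15974955 and 25714827 fragments in stress replicates 1 and 2, against 9011630 and 6396842 in control replicates 1 and 2. For each region, the pileup that a stress library would have needed for a −log10 p of 5, the cutoff of the peak caller, was computed from the control background scaled to that library's depth. Over the 71 regions the needed level was 61.7% of the mean control level in stress replicate 1 (median, from 43.1% to 78.8%) and 56.3% in stress replicate 2 (from 39.0% to 73.6%). The caller also asks for a minimum peak length, and the background in stress is assumed rather than measured, so these levels are a guide to where a call could have been made and not limits on the stress signal. In stress replicate 1 the needed level was below 50% of control at 4 of the 71 regions, those of FSD1, U3B, MIR398b and AT5G16720.

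**Figure D2:**
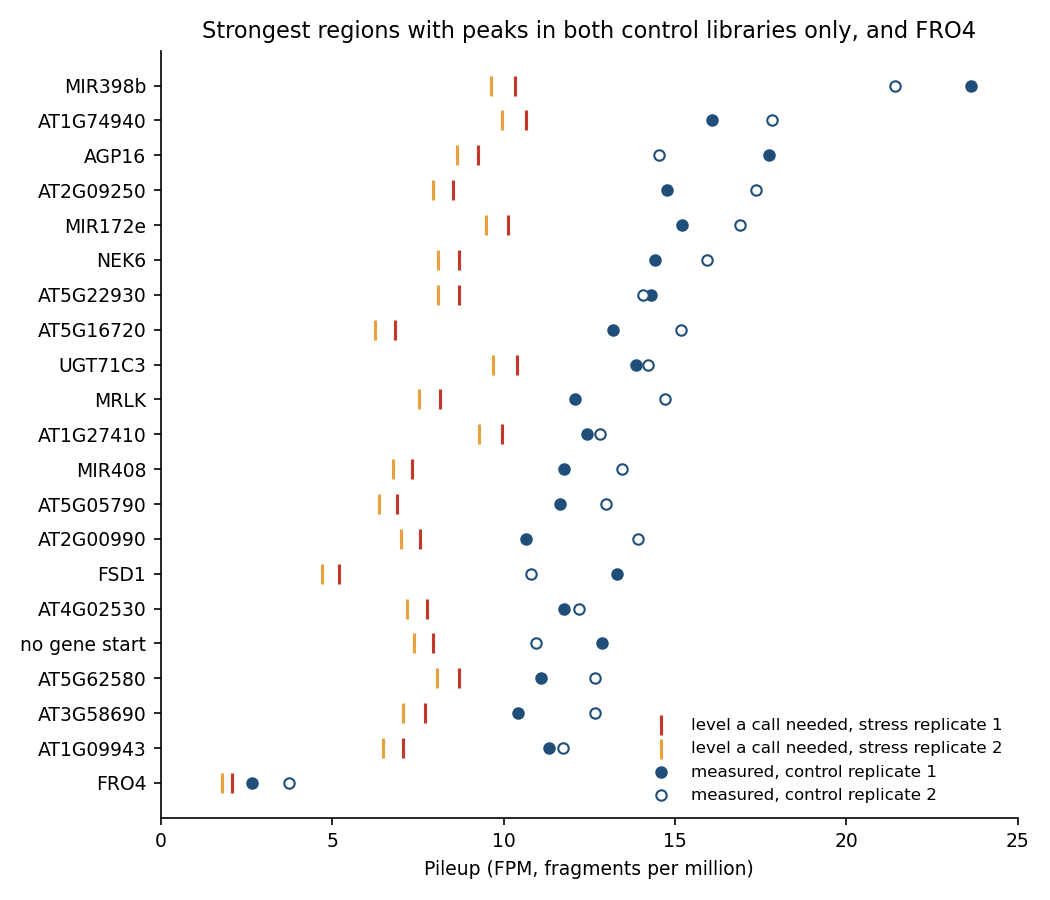
Pileup in fragments per 1000000 (FPM) in control replicate 1 (filled circles) and control replicate 2 (open circles) at the 20 strongest regions of both control libraries and at FRO4, with the level that a call would have needed in stress replicate 1 (red bars) and stress replicate 2 (orange bars) if the background scaled as in control. Both control values lie to the right of both bars in every row, by the most at MIR398b, where the control values are 23.6 and 21.4 FPM. The bars use the control background and the greater stress depth and no stress value. This order thus follows largely from the selection of regions called in control and is not a result about stress.

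Depth moved the number of regions strongly. With all libraries scaled to the depth of the smallest, 639 regions were control-only and 197 of them had peaks in both control libraries, and 253 of the 276 regions were still among them. Without stress replicate 2, the deepest library, 524 regions met the rule, 140 of them in both control libraries, and without control replicate 1 130 did. Of the 152 regions found in control replicate 1 alone, 129 (84.9%) stayed past the cutoff at the depth of replicate 2 by −log10 p, a scaling that does not cover the minimum peak length.

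Regions close to the edge of the rule are given as a description. Among the 71 regions of both control libraries the weakest peaks were those of FRO4, with −log10 p of 5.90 and 8.73 in control replicates 1 and 2, of the snoRNA AT1G08353, with 13.5 and 5.97, and of AT3G20930, with 6.40 and 8.15. Among the regions of 1 control library the lowest −log10 p was 5.33 in replicate 1, at AT3G23730, and 5.60 in replicate 2, at AT5G11180. Just outside lay 87 regions with peaks in both control libraries and in 1 stress library. The weakest stress peaks among these had −log10 p of 6.64 on chromosome 4 (13977521 to 13978301), 6.84 at AT5G65030 and 7.05 at AT2G19210, and their median was 11.9.

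MIR398b had the strongest region of both control libraries, at chr5:4690585-4691299. The pileup was 213 and 137 fragments in control replicates 1 and 2, or 23.6 and 21.4 FPM, and the fold enrichment was 3.199 and 2.93. The summit lay 110 bp before the start of the hairpin in both, and other genes also started within 1 kb of the region, among them the snRNA genes U2.17 and U5.10 of the other strand, so its signal cannot be assigned to 1 gene. MIR408 had 106 and 86 fragments (11.8 and 13.4 FPM) and a fold enrichment of 2.37 and 2.80 at chr2:19319467-19320708, with the summit 157 and 34 bp before the hairpin. No other annotated gene started within 1 kb of that region.

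FSD1 carried a region of 1318 bp over its first part, at chr4:12885719-12887036, with the summit 255 bp inside the gene in control replicate 1 and 918 bp inside in control replicate 2. Its pileup was 120 and 69 fragments in control replicates 1 and 2, or 13.3 and 10.8 FPM, and its fold enrichment of 4.14 and 3.36 was the second highest of the 71 in replicate 1. Stress replicates 1 and 2 would have needed 43.1% and 39.0% of that level for a call. FRO4 was the weakest of the 71 by the mean of both libraries, with 24 fragments in each control library, 2.66 and 3.75 FPM, and a fold enrichment of 2.77 and 3.76 at chr5:8101246-8101645. Both its levels lay below those of MIR398b, MIR408 and FSD1 in the same library.

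Of the 24 genes of the copper list with a match in the annotation, these 4 lay within 1 kb of a control-only region, all of both control libraries. Over all 37713 annotated genes, 320 (0.849%) lay at a control-only region and 94 (0.249%) at one of both control libraries. The list was chosen with earlier results of these data known, so its count beside these shares is a description and no support for a role of copper. The other copper genes did not share the pattern. Regions with a peak in every library lay at 11 of the 24 (45.8%, against 46.2% of all genes), namely SPL7, the superoxide dismutase genes CSD1 and CSD2, their chaperone CCS, the microRNA genes MIR398a, MIR398c, MIR397b and MIR857, the copper transporter gene COPT6, the metal transporter gene YSL2 and the copper chaperone gene CCH. COPT1, a copper importer, and ZIP2, a metal transporter, had the opposite pattern, a region that both stress libraries and neither control library held, as 4.3% of all genes had. COPT2 had another pattern, and MIR397a, FRO5, LAC2, LAC4, LAC17 and ARPN had no region within 1 kb of the start.

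Another 3 genes of the lists lay at a region of control replicate 1 alone. They were SPX4, a phosphate sensor, with 57 fragments and a fold enrichment of 2.201, NRT1.5, a transporter that loads nitrate into the xylem, with 43 and 3.14, and XTH21, a wall-modifying enzyme, with 46 and 2.495. SPX4 also had a region with peaks in every library within 1 kb of its start. None of the matched genes for iron acquisition (23), iron storage (11), sulfate (19), root hairs (18), auxin response (24), abscisic acid response (19) or endodermis and suberin (15) lay at a control-only region. With 0.849% of all genes at such a region, a list of this size would hold few or none.

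The next strongest regions of both control libraries lay at genes of many kinds. AGP16, a small arabinogalactan protein of the cell wall, had 160 and 93 fragments in control replicates 1 and 2 (17.8 and 14.5 FPM) with the summits 821 and 822 bp upstream of the start. AT1G74940, annotated as a putative cyclin-dependent kinase with the domain DUF581, had 145 and 114 fragments (16.1 and 17.8 FPM) with the summits 165 and 249 bp inside the gene. MIR172e had 137 and 108 (15.2 and 16.9 FPM), 508 and 462 bp upstream of its hairpin. The long noncoding RNA gene AT2G09250 had 133 and 111 fragments (14.8 and 17.4 FPM), 252 and 244 bp inside. AGP16 was the highest of these 4 in replicate 1 and the lowest in replicate 2.

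NEK6, a kinase that acts on microtubules in growing cells, had 130 and 102 fragments (14.4 and 15.9 FPM) 789 and 722 bp upstream of the start. AT5G22930, a protein with the domain DUF1635, had 129 and 90 (14.3 and 14.1 FPM) at 44 and 49 bp inside, and AT5G16720, a caldesmon-like protein, had 119 and 97 (13.2 and 15.2 FPM) at 55 bp upstream in both. UGT71C3, a glucosyltransferase, had 125 and 91 fragments (13.9 and 14.2 FPM) and a fold enrichment of 1.93 and 1.88, with the summit 81 bp inside the gene in replicate 1 and 47 bp upstream in replicate 2. MRLK, a receptor-like kinase named for the meristem, had 109 and 94 (12.1 and 14.7 FPM) at 763 bp upstream in both, inside another annotated gene. The summit lay before the start in both control libraries at 3 of these 5, NEK6, AT5G16720 and MRLK.

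The rest of the 20 strongest were at AT1G27410, a metallo-beta-lactamase family protein of DNA repair, the homeodomain-like gene AT5G05790, the miscellaneous RNA gene AT2G00990 between the tubby-like gene TLP3 and CRR6, the thylakoid lumen gene AT4G02530 with U5.7, the gene body of the expansin EXPB1, the ARM repeat gene AT5G62580, the kinase gene AT3G58690, and AT1G09943 next to OFP14. Their levels lay between 10.4 and 13.9 FPM in both control libraries. Some weaker regions had a high fold enrichment, chosen here after their values were seen. ZIFL2, a transporter of the zinc-induced facilitator family, had 38 and 21 fragments and the highest fold enrichment of the 71 in replicate 1, 4.96 (3.64 in replicate 2). BCAT4, an aminotransferase of methionine-derived glucosinolate synthesis, had 30 and 25 fragments at a fold enrichment of 3.55 and 3.75.

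Arabinogalactan proteins recurred among the regions and were counted after this was seen. Of 30 genes with an AGP symbol, 3 lay at a region of both control libraries (AGP16, AGP27 and AGP7) and AGP13 at one of control replicate 1 alone, while 5 lay at a region of both stress libraries alone. The shares of all genes at these sets of regions were 0.249% for both control libraries, 0.849% for any control-only region and 4.3% for both stress libraries alone. AGP27 had 81 and 68 fragments, with the summits 926 and 1109 bp downstream of the start, beyond the gene's end, and AGP7 had 75 and 44, with the summits 562 and 472 bp upstream. The summits thus lay outside AGP16, AGP27 and AGP7, whereas that of AGP13 lay 145 bp inside the gene.

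Regions found in 1 control library had the lower signal in FPM. The strongest of control replicate 1 alone were at AT4G38930, of the ubiquitin fusion degradation family UFD1 (135 fragments), the mitochondrial carrier mSFC1 (126), PEL1 (121), the GATA zinc finger gene AT4G16141 (113) and OBP3, a DOF transcription factor (112). Those of control replicate 2 alone were at the GRAM domain gene AT5G23350 (86), the leucine-rich repeat kinase AT5G62710 (78), the pentatricopeptide gene AT4G17616 (77), the region between PIRL9 and UGT76B1 (73) and a region with no gene start within 1 kb (71). The median level was 6.33 FPM over the 152 regions of replicate 1 alone and 7.03 over the 53 of replicate 2 alone, against 8.82 over the 71 regions of both. The fold enrichment did not show this order for replicate 2, with a median of 2.66 over its 53 regions, against 2.62 over the 71.

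Control-only regions were narrow and weak beside the regions with a peak in every library. Their median width was 358 bp, and that of the 71 regions of both control libraries was 456 bp, against 630 bp for the 1324 regions (8.25% of all) that both stress libraries and neither control library held, and 1194 bp for the 11915 regions of every library. The median fold enrichment was 2.56 for the control-only regions and 2.62 for those of both control libraries, against 2.44 for the regions of both stress libraries alone and 4.20 for those of every library. A weak region meets a rule on absent peaks more readily, so neither value is a finding.

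The position of the summit was not used by the rule. It was taken from the library with the highest FPM at the region, and for control-only regions from a control library. Among the 276 control-only regions, 147 summits (53.3%) lay between annotated genes, and among the 71 of both control libraries 31 did (43.7%), against 13.8% of the regions of both stress libraries alone and 10.0% of those of every library. The summit lay 1 to 1000 bp upstream of the nearest protein-coding start in 36.6% of the control-only regions and in 31.0% of those of both control libraries, against 10.0% and 11.98% in these other sets. It lay 0 to 500 bp downstream, the usual place of the mark, in 21.0% and 26.8%, against 62.2% and 73.2%. Taken from either control library alone, the summit lay between genes in 32 of the 71 regions, upstream in 22 and downstream in 17. Coding exons held 7.25% of the control-only summits, against 45.9% and 34.2%.

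**Figure D3:**
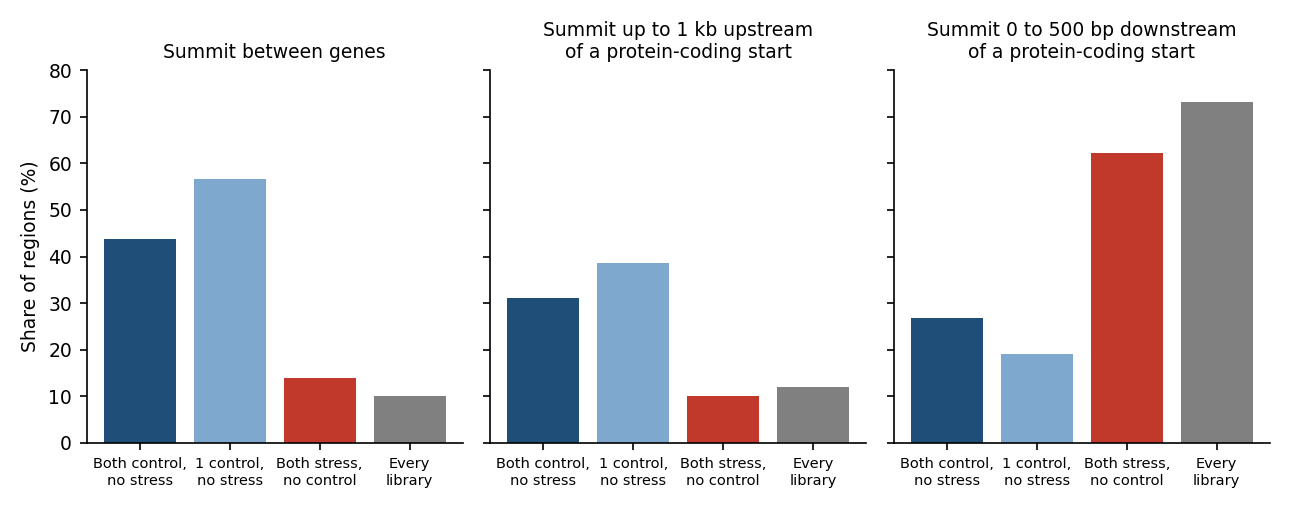
Share of regions (y axis, percent) whose summit lay between genes, up to 1 kb upstream or 0 to 500 bp downstream of the nearest protein-coding start, for the 71 regions of both control libraries, the 205 of 1 control library, the 1324 of both stress libraries alone and the 11915 of every library. Summits between genes made up 43.7% and 56.6% of the control-only sets, 13.8% of the set of both stress libraries and 10.0% of the set of every library.

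The width moved with this pattern. Regions of up to 500 bp made up 84.1% of the control-only regions, against 27.9% of those of both stress libraries alone and 0.873% of those of every library. Within this width the summit lay between genes in 57.3% of the 232 control-only regions, against 21.95% of 369 regions of both stress libraries alone and 33.7% of 104 regions of every library. It lay up to 1 kb upstream of a protein-coding start in 39.7%, against 13.0% and 25.96%. The 87 regions of both control libraries and 1 stress library, which missed the rule by 1 peak, were close to the control-only ones, with 42.5% between genes and 32.2% upstream. The GC content was lower as well, with a median of 34.6% in the control-only regions, 39.4% in those of both stress libraries alone and 38.3% in those of every library.

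Whole libraries, which include the control-only regions, differed in the same direction. Summits between genes made up 8.68% and 8.12% of all summits in stress replicates 1 and 2, against 14.6% and 13.7% in control replicates 1 and 2, and the conditions did not overlap. With each library scaled to the smallest depth, a step added after seeing the data, the shares were 7.42% and 5.14% in stress and 14.5% and 13.7% in control. As deposited, the summits between genes numbered 1282 and 1281 in stress replicates 1 and 2, and 2003 and 1736 in control replicates 1 and 2. The control-only regions held 147 such summits, so most of those of the control libraries lay at regions that also held a stress peak. Peaks at regions of every library were longer in stress, with a median length of 1067 and 1124 bp in stress replicates 1 and 2. The median was 889 and 797 bp in control replicates 1 and 2, and the part of this was not tested. With 2 libraries per condition the difference cannot be told apart from other differences between the libraries.

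Small RNA genes were frequent at control-only regions. A tRNA, snRNA or snoRNA gene started within 1 kb of 35 of the 276 regions (12.7%) and of 13 of the 71 of both control libraries (18.3%), against 1.21% of the regions of both stress libraries alone and 3.37% of those of every library. The 87 regions of both control libraries and 1 stress library, which missed the rule by 1 peak, were closer, with 8 (9.20%). Counted by gene, 9 of 82 snRNA genes (11.0%) lay at a control-only region and 1 (1.22%) at a region of both stress libraries alone. The same counts were 26 (4.32%) and 14 (2.33%) of 602 tRNA genes, 8 (2.79%) and 5 (1.74%) of 287 snoRNA genes, 5 (1.53%) and 8 (2.45%) of 326 miRNA genes, and 221 (0.808%) and 1387 (5.07%) of 27350 protein-coding genes. Over all genes they were 320 (0.849%) and 1620 (4.3%). Of the 8 snoRNA genes, 5 lay at 1 region of control replicate 1 alone, at chr4:8712136-8712535, and by region a snoRNA gene was near 4 of 276 control-only regions (1.45%), against 0.0755% of the regions of both stress libraries alone and 1.07% of those of every library. Among narrow regions of up to 500 bp, the share with such a small RNA gene was 12.1% for control-only regions, 1.63% for regions of both stress libraries alone and 2.88% for those of every library. These gene types were picked after their counts were seen, and their copies are often nearly identical. How reads that fit several copies were placed is not given in the sources used here, so the split of signal between copies is uncertain.

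**Figure D4:**
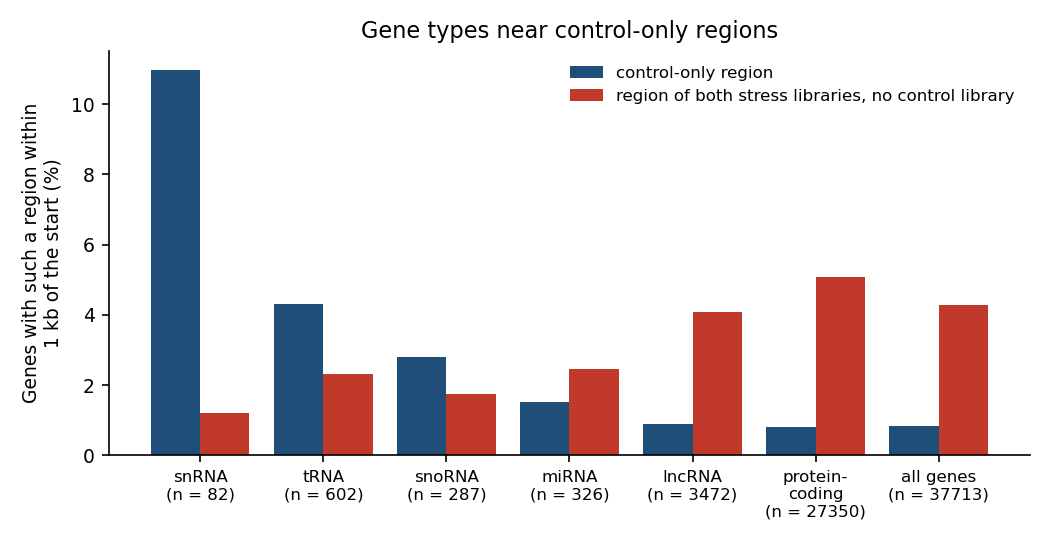
Share of genes of each annotated type (y axis, percent, with the number of genes under each name) with a control-only region (blue) or a region of both stress libraries alone (red) within 1 kb of the start. For snRNA, tRNA and snoRNA genes the blue bar is the taller one, 11.0% against 1.22% for snRNA genes, and for protein-coding genes the red bar is, 0.808% against 5.07%. The blue snoRNA bar stands for 8 genes, 5 of which lie at 1 region. Genes at regions of every library are not shown.

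At tRNA genes most summits sat close to the gene. In 22 of 27 pairs of a tRNA gene and a control-only region the summit was within 250 bp of the start, with a median of 120 bp downstream, beyond the end of the genes shown above, which are 71 to 73 bases long. By library, this held for 20 of 25 pairs in control replicate 1 and 7 of 9 in control replicate 2. For snRNA genes the summit was that close in 3 of 9 pairs, and for snoRNA genes in 3 of 8. By library, it was 4 of 9 snRNA pairs in control replicate 1 and 1 of 6 in control replicate 2. For snoRNA pairs it was 2 of 8 and 1 of 2. The 9 snRNA genes lay at 7 regions. The tRNA-Trp gene AT4G17765, whose sequence is shown above, had 72 and 71 fragments in control replicates 1 and 2 (7.99 and 11.1 FPM) and a fold enrichment of 2.44 and 3.08. The tRNA-Lys gene AT3G56085 had 67 and 61 (7.43 and 9.54 FPM) at 2.67 and 3.44, and the tRNA-Gly gene AT1G60840 had 65 and 39 (7.21 and 6.10 FPM) at 3.41 and 2.97. The letters of the B box core, searched on both strands, were within the 300 bases around the summit in 5.43% of control-only regions and 3.301% of all regions.

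Over whole libraries, a summit lay within 250 bp of the start of 80 and 76 of the 602 tRNA genes in stress replicates 1 and 2, against 165 and 136 in control replicates 1 and 2. The mean of the stress libraries was lower by 72.5 genes, and at equal depth the counts were 71 and 60 in stress and 163 and 136 in control. For the 82 snRNA genes the counts were 9 and 12 in stress and 18 and 13 in control, and 8 and 8 in stress and 18 and 13 in control at equal depth. The conditions did not overlap for either gene type, but stress replicate 2 and control replicate 2 differed by 1 snRNA gene as deposited. The same count over all genes was not made, so a general difference in summit position between the libraries cannot be told apart. A gene under a longer peak with its summit further away is not counted, and peaks at regions of every library were longer in stress, as given above. The part of this was not tested. With 2 libraries per condition, other differences between the libraries cannot be told apart either.

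**Figure D5:**
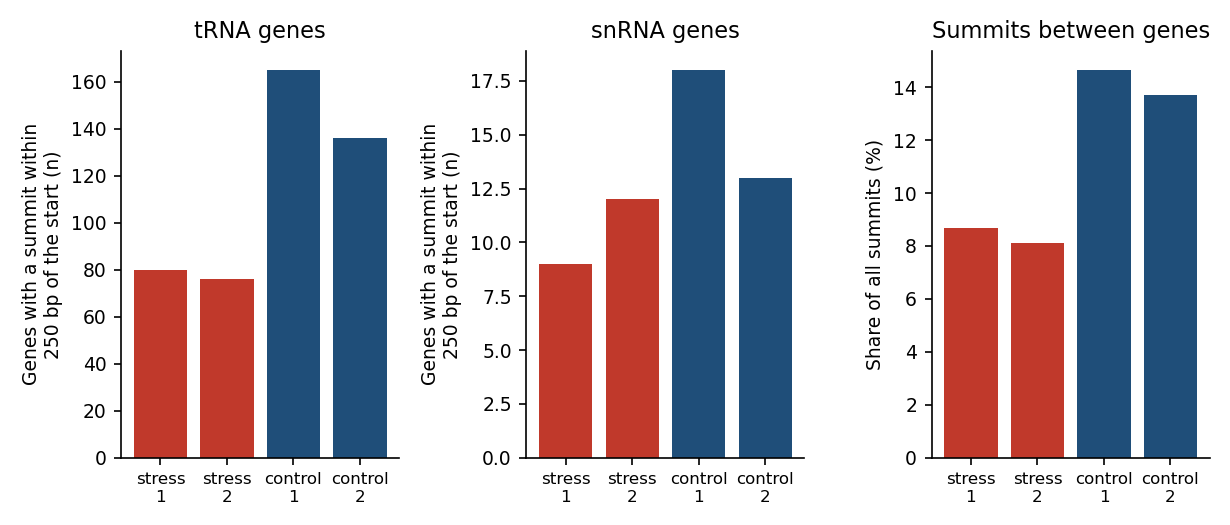
Number of tRNA genes (left, of 602) and snRNA genes (middle, of 82) with a summit within 250 bp of the start, and share of all summits that lay between genes (right, percent), in stress libraries 1 and 2 (red) and control libraries 1 and 2 (blue). Each bar is 1 library, and tRNA genes number 80 and 76 in stress and 165 and 136 in control. A gene under a peak whose summit lies further away is not counted.

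The snRNA upstream element TCCCACATCG, added to the search after the snRNA genes were seen and read on both strands, was within 300 bases around the summit in 9 of 276 control-only regions (3.26%). Of these, 8 were among the 71 regions of both control libraries (11.3%) and 1 among the 205 of 1 control library (0.488%). It was in 2 of 1324 regions of both stress libraries alone (0.151%), in 14 of 11915 of every library (0.117%) and in 33 of all 16055 (0.206%). Only 3 of the 9 had an annotated snRNA start within 1 kb. Genes at control-only regions that held the element in the start window and are annotated otherwise included the miscellaneous RNA genes AT5G08155 and AT1G09943 and the protein-coding gene AT3G63052. In the start windows of all genes it was present in 0.255%, in those of snRNA genes in 36.6%, and in 6 of the 9 snRNA genes at control-only regions.

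Among the snRNA genes, U4atac had 73 and 61 fragments in control replicates 1 and 2 (8.10 and 9.54 FPM), a fold enrichment of 2.59 and 3.05 and the summit 153 bp before the start in both. At U5.7, whose region of 106 and 78 fragments also covers the start of AT4G02530, the summit lay 8 bp downstream of the U5.7 start in control replicate 1 and 563 bp downstream in control replicate 2. U3B, a snoRNA gene whose RNA guides the cleavage of ribosomal RNA precursors, had 90 and 67 fragments (9.99 and 10.5 FPM) and a fold enrichment of 3.83 and 3.76, the highest of the 71 in replicate 2. It overlaps the protein-coding gene AT5G53905, and CUT&Tag does not tell strands apart.

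Of the other letters searched, 2 were less frequent at control-only summits than in both other sets. The telo-box AAACCCTA was in 4.71% of control-only windows of 300 bases, against 9.89% for both stress libraries alone and 14.9% for every library, and the dehydration element core CCGAC in 17.03%, against 25.2% and 27.8%. The G-box CACGTG was in 8.33%, against 8.38% and 7.02%, and the phosphate element GNATATNC in 5.07%, against 4.23% and 4.15%. GTAC was in 49.6%, against 42.5% and 39.7%. All were read on both strands. The sets also differ in GC content as given above, whose part in these shares was not tested.

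Control-only regions were spread over all chromosomes, with 74, 33, 62, 45 and 62 on chromosomes 1 to 5. Another region with a stress peak lay within 1 kb of 111 of them (40.2%). Another such region was so close to 19.6% of the regions of both stress libraries alone and 12.9% of those of every library. A gene of any type started within 1 kb of 216 (78.3%) of the control-only regions and of 59 (83.1%) of those of both control libraries, against 92.2% of the regions of both stress libraries alone and 98.7% of those of every library.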

How the data were processed

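H3K4me3 CUT&Tag peak tables of 2 stress and 2 control libraries were used. Per the labels, the authors' processing used fastp 0.19.7, Bowtie2 2.3.5.1 and MACS2 with the build TAIR10, and the file headers name MACS 2.2.7.1, a cutoff of 5 on −log10 p, a regional background of 10000 bp, no input library and 2700000000 bp as the genome size. That genome size is far above the size of the Arabidopsis genome, and what this did to the calls was not tested. The deposited values are the pileup, a signal in fragments that the authors did not scale to depth, the fold enrichment, a ratio of pileup to local background, and −log10 p and q. Depth was 15974955 and 25714827 fragments in stress replicates 1 and 2 and 9011630 and 6396842 in control replicates 1 and 2, and more depth calls weaker peaks. The background recovered from pileup and ratio gave back −log10 p within 0.00102 for 56681 checked peaks.

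Positions were set against the RefSeq TAIR10.1 genome and annotation (37713 genes), beyond whose chromosomes no peak reached. Genes named were those with the nearest start within 1 kb of the 20 strongest regions of both control libraries, list genes and miRNA genes within 1 kb, and the 5 strongest regions of each single control library, with others marked in the text. Lists held 210 matched genes. CITF1, BTSL1 and BTSL2 found no gene, and PHR1, PS2, RAB18 and FAR1 found 2 each. The regions and lists were chosen with earlier results of these data known. The scripts were tested on simulated data. Python 3.11.15, pandas 2.3.3, numpy 2.4.6 and scipy 1.17.1 were used. Alternatives covered the peak threshold, depth, the merging of peaks, the organelle copy and each library left out.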

Additional observations from a re-analysis of the deposited data

How the results depend on the processing

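With a −log10 q of at least 10 there were 144 control-only regions (34 of both control libraries, 84.7% within 1 kb of a gene start, median fold enrichment 2.83). With a fold enrichment of at least 4 there were 791 (333, 96.5% and 4.30), of which 10 of the 276 regions were part. At the depth of the smallest library there were 639 (197, 80.8% and 2.73). Leaving out 1 library at a time gave 130 to 524 control-only regions and, for a left-out stress library, 93 to 140 of both control libraries, which has no value without a control library. The share near a gene start was then 77.4% to 81.5% and the median fold enrichment 2.51 to 2.65. Merging peaks within 200 bp, asking for an overlap of 100 bp and keeping the organelle copy moved the count by less than 1.5 times, to 261, 301 and 276. Taking the summit from either control library, an alternative added after seeing the data, moved the counts by place among the 71 regions by at most 2. No paired analysis was possible because the regions come from the presence of peaks and not from a test. A pileup is known only where a peak was called, so the size of any difference at these regions cannot be given. With 2 libraries per condition, groups are too small to look for a library that stands apart.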
